A study of Mus musculus with 8 samples.

Results

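Expression of 9 mouse genes for tight junction scaffolds and MARVEL domain proteins was examined in liver progenitor cells transfected with the epithelial transcription factor GRHL2. The genes were chosen by symbol, with earlier results of these data known. They are the MARVEL genes Ocln, Marveld2 and Marveld3, the zonula occludens genes Tjp1 and Tjp3, the cingulin genes Cgn and Cgnl1, the junctional adhesion molecule gene F11r and the polarity scaffold gene Patj. All 9 were among the 18671 genes measured.

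RNA-seq had been performed on 8 samples of BMEL cells, a line of bipotential mouse embryonic liver cells, 48 h after transfection. In 4 samples (plasmid label pGRHL2, called GRHL2 below) the plasmid encoded human GRHL2 with a Flag tag under the EEF1A1 promoter, and a second reading frame encoded enhanced green fluorescent protein. The other 4 samples (label pcDNA3) received the pcDNA3 vector, so that the plasmids differed by more than GRHL2. All cells were grown on collagen in serum with IGFII, EGF and insulin. The samples were numbered 1 to 4 in each group and are described in the study as independent biological replicates. The cells are a single line, transfection was transient, and the share of transfected cells in each sample is not known here.

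Tight junctions seal the space between neighbouring epithelial cells, and in the liver they separate bile from blood along canaliculi and bile ducts. Their transmembrane strands are built from claudins and from MARVEL proteins, which cross the membrane through a shared fold: occludin (Ocln), tricellulin (Marveld2), which is concentrated where 3 cells meet, and Marveld3. On the cytoplasmic side the zonula occludens proteins ZO-1 (Tjp1) and ZO-3 (Tjp3) bind these strands and connect them to actin, and cingulin (Cgn) and paracingulin (Cgnl1) attach to ZO-1 and to the cytoskeleton. JAM-A (F11r) is an immunoglobulin adhesion protein that recruits polarity proteins, and PATJ is a PDZ scaffold of the Crumbs complex.

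The 150 bases upstream of the annotated start are shown for the 3 genes that rose and for Cgn, whose window was the single one of the set to hold a degenerate Grainyhead motif. The sequences are those of RefSeq on GRCm38.p6, read 5′ to 3′ on the gene's strand, and 8 of the 9 genes were matched. Capitals mark AACCNGTT (the Grainyhead family consensus with 1 free base), GGGCGG (the GC box bound by Sp1 family factors) and CACCTG (the E-box bound by SNAIL and ZEB factors), each searched on both strands. The regions are chr13:100552719-100552868 for Ocln, chr13:100616972-100617121 for Marveld2, chr10:81291582-81291731 for Tjp3 and chr3:94786483-94786632 for Cgn, all on the minus strand. No other gene overlaps these windows, and the last bases of the Cgn window lie within a longer Cgn model.
Ocln: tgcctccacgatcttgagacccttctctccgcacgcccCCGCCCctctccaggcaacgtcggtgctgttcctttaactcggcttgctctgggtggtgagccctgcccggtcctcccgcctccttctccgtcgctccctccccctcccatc
Marveld2: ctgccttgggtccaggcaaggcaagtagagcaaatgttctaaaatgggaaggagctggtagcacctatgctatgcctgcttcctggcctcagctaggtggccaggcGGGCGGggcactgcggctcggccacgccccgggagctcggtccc
Tjp3: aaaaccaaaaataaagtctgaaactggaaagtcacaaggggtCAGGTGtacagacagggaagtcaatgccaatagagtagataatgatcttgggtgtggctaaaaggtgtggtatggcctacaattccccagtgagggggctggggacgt
Cgn: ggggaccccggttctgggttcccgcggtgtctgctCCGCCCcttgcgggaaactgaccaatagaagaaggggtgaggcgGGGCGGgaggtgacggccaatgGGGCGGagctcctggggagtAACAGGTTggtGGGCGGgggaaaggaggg

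The Ocln and Marveld2 windows each held 1 GC box, 112 and 44 bases before the start, and were rich in G and C (66.7% and 64.0%). The Tjp3 window differed from both: it had 46.7% G and C, 1 CpG, no GC box and 1 E-box at 108 bases before the start. The median over all promoters was 54% G and C and 4 CpG. The Cgn window carried 4 GC boxes, and its AACCNGTT match lay 29 bases before the start. Among 32817 mouse promoter windows of this length, 28.6% held GGGCGG, 10.6% CACCTG, 1.04% AACCNGTT and 0.0640% the strict AACCGGTT, which is contained in AACCNGTT. In the 8 windows of the set GGGCGG was found in 7, CACCTG in 3 (Tjp3, F11r and Patj), AACCNGTT in 1 and AACCGGTT in 0. The 3 genes that rose thus shared none of these motifs in all of their windows.

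The samples were checked before the genes were compared. Values are those deposited by the authors, on a log2 scale per transcript length, and the read depth behind them is unknown. Grhl2 itself was at 6.30, 6.96, 5.65 and 6.05 in the GRHL2 samples and at 4.68, 4.57, 4.42 and 4.44 in the controls, a difference of 1.71 (SE 0.22, adjusted p = 0.00100). As the plasmid carries the human cDNA and the table lists mouse symbols, the part of this value that comes from the plasmid is unknown. Over all genes, limma called 3061 of 18671 (16.4%) at an adjusted p under 0.05, 63.9% of them higher with GRHL2, and that share was 75.9% after scaling to an equal upper quartile and 77.0% after scaling to an equal sum. Liver epithelial markers were present at 9 of 10, among them Krt8 at 15.36 and Hnf4a at 11.16, whereas Dlk1 was not in the table. Their summed level was 16.83 to 16.97 with GRHL2 and 16.65 to 16.83 in controls, and Epcam (1.75) and Cdh1 (0.29) were called higher. The summed level of 6 listed hepatocyte markers was 8.43 to 8.59 with GRHL2 and 8.60 to 8.71 in controls. Afp, which the study uses as a progenitor marker, was the highest of them (8.22, against 5.22 for Alb). Afp was called lower (-0.21), and none of the others was called. Of 7 mesenchymal markers 3 were in the table (summed level 5.53 to 5.75 against 5.32 to 5.60). The genes Col1a2, Col3a1, Dcn and Lum were not in it. The differences of all 3 were positive, and Pdgfrb, at a low level (-0.18), was called higher (0.11, adjusted p = 0.00886). The part of these marker differences in the results below was not tested, and in bulk RNA a change in the number of cells of a kind cannot be told apart from a change of RNA per cell.

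Of the 9 genes, 3 rose with GRHL2, and the other 6 did not pass the test. Ocln rose by 0.62 on the log2 scale, Tjp3 by 0.49 and Marveld2 by 0.45. Tjp1 was 0.22 lower at an adjusted p of 0.0603, and the remaining 5 genes differed by 0.10 or less. The count of 3 higher and 0 lower among 9 is to be read against 10.5% of all genes called higher and 5.91% called lower. The median difference was 0.057 over the 9 genes and 0.0066 over all genes, and 8 of the 9 differences were positive, against 10061 of 18671. In the plot of values by sample the GRHL2 points of Ocln, Marveld2 and Tjp3 lie wholly above their control points, which was the case for 14.3% of all genes. No member lay wholly below its controls, against 9.47% of all genes.

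**Figure D1:**
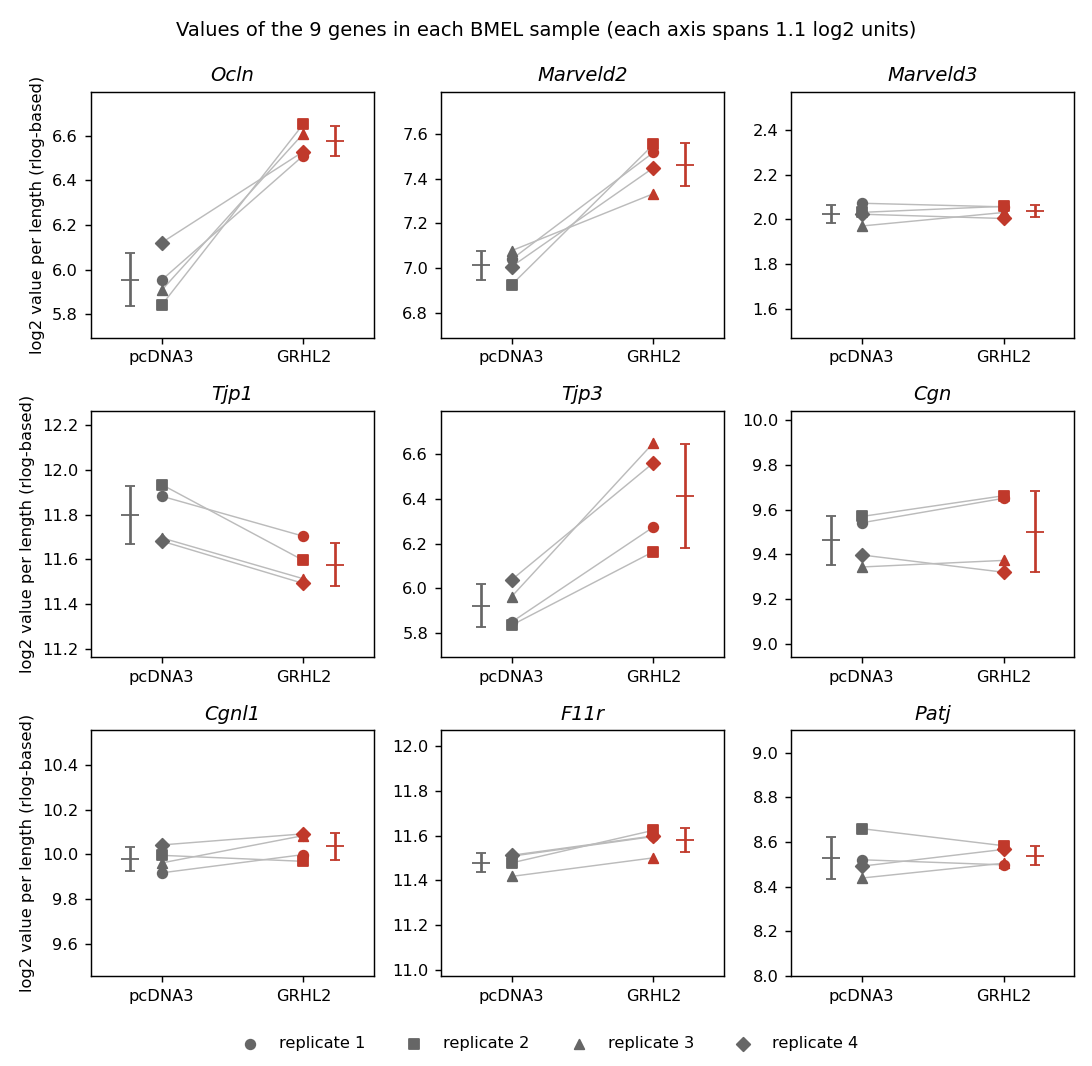
Log2 values per transcript length of each of the 9 genes in the 4 pcDNA3 and 4 GRHL2 samples, with lines joining samples of the same replicate number and bars for the mean ± SD beside the points. Ocln, Marveld2 and Tjp3 are higher in all 4 GRHL2 samples than in any control, Tjp1 is lower within each replicate number, and the other genes overlap.

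Ocln (occludin; ENSMUSG00000021638, chr13:100496507-100552718, minus strand, GRCm38) was at 6.51, 6.65, 6.61 and 6.53 in GRHL2 replicates 1 to 4 and at 5.95, 5.84, 5.91 and 6.12 in the control replicates. Every GRHL2 sample was above every control, and the lowest GRHL2 sample lay 0.39 above the highest control, replicate 4. The means were 6.57 ± 0.067 and 5.96 ± 0.12 (SD, n = 4 each), a difference of 0.62 (SE 0.063, 95% confidence interval 0.48 to 0.76, adjusted p = 0.000304). This is 1.54-fold, and Ocln ranked at place 119 of 18671 genes by increase. An exact two-sided permutation test of 4 against 4 samples gave p = 0.0286, the smallest that this design allows. The test leaves the pairing aside, and sign flips within the 4 same-numbered pairs gave the smallest p they allow, 0.125 (exact, two-sided). The difference was 0.68 within replicates 1 and 2 and 0.55 within replicates 3 and 4.

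Marveld2 (tricellulin; ENSMUSG00000021636, chr13:100595957-100616971, minus strand) was at 7.52, 7.55, 7.33 and 7.45 with GRHL2 and at 7.04, 6.93, 7.08 and 7.01 in controls. The groups did not overlap, and the gap of 0.25 lay between the 2 samples numbered 3, the lowest GRHL2 sample and the highest control. The means were 7.46 ± 0.097 and 7.01 ± 0.065 (SD, n = 4 each), a difference of 0.45 (SE 0.058, 95% confidence interval 0.32 to 0.58, adjusted p = 0.000986), or 1.37-fold. It was 0.55 within replicates 1 and 2 and 0.35 within replicates 3 and 4. The direction was the same in all 4 replicate numbers.

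Marveld3, the third MARVEL protein of the junction (ENSMUSG00000001672, chr8:109947914-109962203, minus strand), was the lowest of the 9 genes. It lay at 2.06, 2.06, 2.03 and 2.003 with GRHL2 and at 2.07, 2.03, 1.97 and 2.02 in controls, and the groups overlapped. The difference was 0.013 (SE 0.025, 95% confidence interval -0.042 to 0.068, adjusted p = 0.770). With transcript length added back its mean level was 2.56, and per length it was above 20.6% of all genes. The regularized logarithm (rlog) shrinks differences of low genes, so a change of Marveld3 may not have been detectable. Whether the rlog hid one was not tested. The claudin gene Cldn23, at 2.87 with length added back, was called higher by 0.16.

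Ocln and Marveld2 are neighbours. They lie in tandem on the minus strand of chromosome 13 with 43.2 kb between the start of Ocln and the end of Marveld2, and no other gene of the table lies between them. Genes within 100 kb of either did not all move the same way. Gtf2h2, a subunit of the transcription factor TFIIH just beyond the end of Ocln, was called lower (-0.20, adjusted p = 0.0368). Rad17, a checkpoint gene directly upstream of Marveld2, was at -0.23 (adjusted p = 0.0891, or 0.00502 with the replicate number as a block), and Ak6, an adenylate kinase, at -0.18 (adjusted p = 0.0513, and 0.0156 with the block). Ccdc125 was called higher (0.31, adjusted p = 0.00309). Cdk7, the kinase of TFIIH, was at -0.027 (adjusted p = 0.772) and Naip1 at 0.014 (adjusted p = 0.718). None of the 17 measured genes within 100 kb of Tjp3 was called, and 5 of them were called with the block, among which Mfsd12 was at 0.24 (adjusted p = 0.0517, and 0.00709 with the block). Over all genes the shares called were 16.4% and 32.1%.

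Of the zonula occludens genes, Tjp3 rose and Tjp1 did not. Tjp3 (ENSMUSG00000034917, chr10:81273207-81291581, minus strand) was at 6.28, 6.16, 6.65 and 6.56 with GRHL2 and at 5.85, 5.84, 5.96 and 6.04 in controls. The groups did not overlap, by a gap of 0.13, and in both groups replicates 1 and 2 were lower than replicates 3 and 4. The means were 6.41 ± 0.23 and 5.92 ± 0.097 (SD, n = 4 each), a difference of 0.49 (SE 0.10, 95% confidence interval 0.26 to 0.72, adjusted p = 0.0112), or 1.41-fold. It was 0.38 within replicates 1 and 2 and 0.61 within replicates 3 and 4. The 3′ end of Tjp3 overlaps Apba3 on the opposite strand, and reads were counted without regard to strand, so reads from this overlap cannot be assigned. Apba3 itself was at -0.15 (adjusted p = 0.0906, and 0.0187 with the block).

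Tjp1 (ENSMUSG00000030516, chr7:65296165-65527781, minus strand) was at 11.70, 11.59, 11.51 and 11.49 with GRHL2 and at 11.88, 11.93, 11.70 and 11.68 in controls. It was lower with GRHL2 within each of the 4 replicate numbers, but the groups overlapped, since GRHL2 replicate 1 lay above control replicate 4. The means were 11.58 ± 0.096 and 11.80 ± 0.13 (SD, n = 4 each), a difference of -0.22 (SE 0.071, 95% confidence interval -0.38 to -0.064), or 0.857-fold. The adjusted p of 0.0603 became 0.00204 once the replicate number was entered as a block, and it ran from 0.000492 to 0.153 over all alternatives. An exact two-sided permutation test gave p = 0.0857. Without GRHL2 replicate 1 the difference was -0.27 (adjusted p = 0.0474), and without control replicate 4 it was -0.26 (adjusted p = 0.0473). Like Cgn, and opposite to Tjp3, Tjp1 was higher in replicates 1 and 2 than in replicates 3 and 4 in both groups. The labels name no batch.

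Related genes were also compared within each sample, which removes any scaling of the sample as a whole. In all, 4 pairs were formed, and p-values of the exact two-sided permutation test were adjusted over them by the Benjamini-Hochberg method. Tjp3 lay 5.88 ± 0.22 below Tjp1 in controls and 5.16 ± 0.31 below it with GRHL2 (SD, n = 4 each). The ratio of Tjp3 to Tjp1 was thus 1.64-fold higher with GRHL2, with no overlap between the groups (exact p = 0.0286, adjusted p = 0.0571). Exact sign flips within same-numbered pairs, which cannot go below 0.125, gave 0.125 for this pair. It shifted by 0.64 within replicates 1 and 2 and by 0.79 within replicates 3 and 4. Marveld3 lay 4.99 below Marveld2 in controls and 5.43 below it with GRHL2. This shift of -0.44 is nearly the difference of Marveld2 with its sign turned, since Marveld3 itself differed by 0.013. The rlog shrinks differences of low genes, and its part in this was not tested, so no change of their ratio is read from the shift. The exact p of Marveld3 minus Marveld2 was also 0.0286 (adjusted p = 0.0571). Without it the adjusted p of Tjp3 minus Tjp1 would be higher. Ocln minus Marveld2 moved by 0.17 (exact p = 0.114, adjusted p = 0.152), and Cgn minus Cgnl1 by -0.018 (exact p = 0.857, adjusted p = 0.857). With 4 pairs, none could pass 0.05 after adjustment unless more than 2 reached the smallest p of 0.0286.

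**Figure D2:**
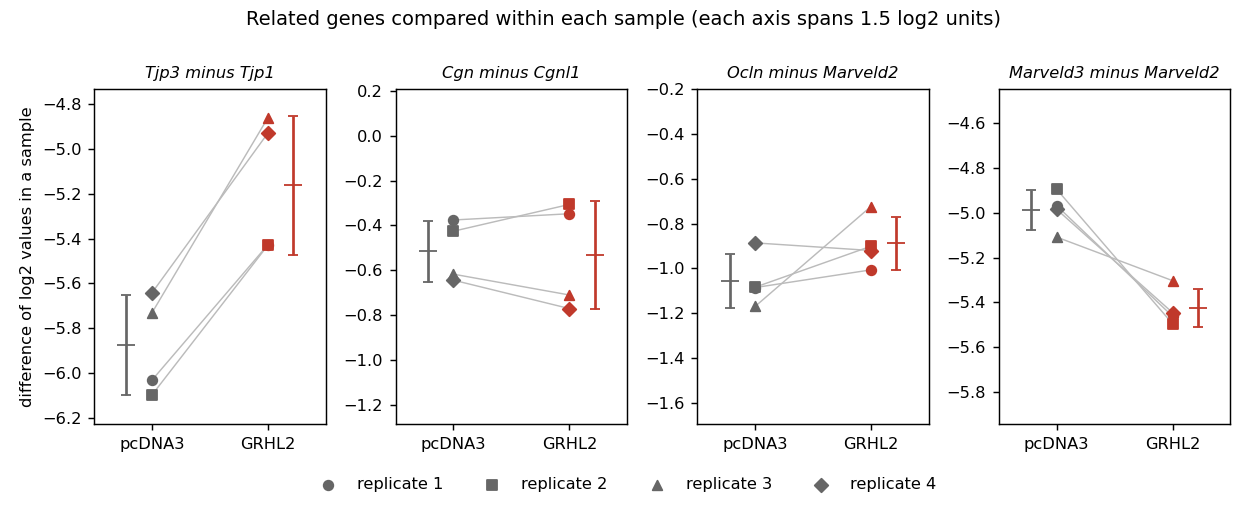
Difference of the log2 values of 2 related genes within each sample, for the 4 pcDNA3 and 4 GRHL2 samples, with lines joining the same replicate number and bars for the mean ± SD. Tjp3 minus Tjp1 moves up by 0.71 without overlap and Cgn minus Cgnl1 shifts by -0.018, while the shift of Marveld3 minus Marveld2 (-0.44) follows Marveld2.

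The cingulin genes did not pass the test. Cgn (ENSMUSG00000068876, chr3:94760069-94786492, minus strand) was at 9.65, 9.66, 9.37 and 9.32 with GRHL2 and at 9.54, 9.57, 9.34 and 9.40 in controls. Replicates 1 and 2 stood above replicates 3 and 4 in both groups, by 0.31 and 0.19, more than the groups differed. The difference between the groups was 0.039 (SE 0.091, 95% confidence interval -0.16 to 0.24, adjusted p = 0.814). Cgnl1 (ENSMUSG00000032232, chr9:71626509-71771602, minus strand) was at 10.00, 9.97, 10.08 and 10.09 with GRHL2 and at 9.92, 10.00, 9.96 and 10.04 in controls. Its groups overlapped, with a difference of 0.057 (SE 0.049, 95% confidence interval -0.052 to 0.17, adjusted p = 0.474). The intervals leave room for a rise of up to 18.2% in Cgn and 12.2% in Cgnl1.

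F11r, which encodes JAM-A (ENSMUSG00000038235, chr1:171437535-171464603, plus strand), was at 11.60, 11.62, 11.50 and 11.60 with GRHL2 and at 11.51, 11.48, 11.42 and 11.51 in controls. It was higher with GRHL2 in all 4 replicate numbers, and the groups overlapped narrowly, at GRHL2 replicate 3. The difference was 0.10 (SE 0.044, 95% confidence interval 0.0030 to 0.20), or 1.07-fold. The adjusted p of F11r was 0.150, or 0.0301 under the replicate block, and ran from 0.0241 to 0.302 over all alternatives. Patj (ENSMUSG00000061859, chr4:98395785-98719603, plus strand) was at 8.50, 8.58, 8.50 and 8.57 with GRHL2 and at 8.52, 8.66, 8.44 and 8.49 in controls. Its groups overlapped throughout, with a difference of 0.011 (SE 0.055, 95% confidence interval -0.11 to 0.13, adjusted p = 0.923).

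Same-numbered samples tended to lie on the same side of their group means, so the number was also entered as a block. With the block 4 of the 9 genes were called higher (Ocln, Tjp3, Marveld2 and F11r) and 1 lower (Tjp1), beside 18.2% and 13.9% of all genes (32.1% in either direction). With the block and without replicate number 1, 3 or 4, the count of genes called higher was 3, and without number 2 it was 4. The block narrowed the interval of Tjp3 to 0.36 to 0.62 and that of Tjp1 to -0.30 to -0.14, and left those of Ocln and Marveld2 nearly as they were. In the plot of differences by gene, these are the blue bars.

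**Figure D3:**
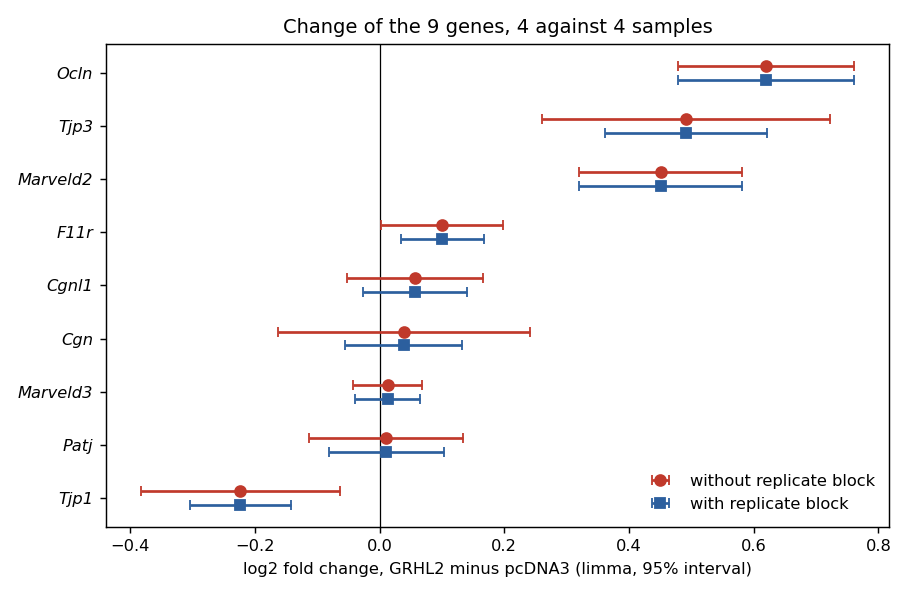
Log2 fold change (GRHL2 minus pcDNA3) of the 9 genes with 95% confidence intervals from limma, without (red) and with (blue) the replicate number as a block. The intervals of Ocln, Tjp3 and Marveld2 lie above 0.26 in both, that of Tjp1 lies below 0, and those of Cgn, Cgnl1, Marveld3 and Patj span 0.

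Other junction and MARVEL genes were taken from lists, to set the 9 genes beside their families. Of 24 further scaffold, adhesion and regulatory genes of the tight junction 4 were called higher and 1 lower (8 and 2 with the block), beside 10.5% higher and 5.91% lower over all genes (18.2% and 13.9% with the block). Amotl1, an angiomotin family scaffold, rose from 9.15 ± 0.046 to 9.52 ± 0.019 (SD, n = 4 each), by 0.37 (SE 0.043, adjusted p = 0.000549). Igsf5, the adhesion protein JAM4, rose by 0.28 (adjusted p = 0.0463), Micall2, a Rab13 effector, by 0.21 (adjusted p = 0.0463), and the adhesion gene Esam by 0.20 (adjusted p = 0.0288). Tjap1, which encodes a tight junction associated protein, fell by 0.35 (adjusted p = 0.0401). The median of this list was 0.032, with 14 differences above and 10 below 0. These counts rested on single samples. Leaving out GRHL2 replicate 1 or 3, or control replicate 1 or 3, left 1 of the 4 higher calls, and leaving out GRHL2 replicate 4, control replicate 2 or control replicate 4 left 2. Tjap1 lost its call without any 1 of these 7 samples.

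Some relatives and partners of the members were described whatever their result, and these did not pass the test without the block. The junctional adhesion molecule gene Jam3 differed by 0.12 (adjusted p = 0.111, and 0.0266 with the block) and Jam2 by 0.082 (adjusted p = 0.555). Lsr and Ildr1, which encode angulins that recruit tricellulin to tricellular contacts, differed by 0.028 (adjusted p = 0.705) and 0.037 (adjusted p = 0.204). The third angulin, Ildr2, named after its values were seen, was at -0.19 (adjusted p = 0.133, and 0.00871 with the block) and was lower with GRHL2 in all 4 replicate numbers. Whether these differences differ from that of Marveld2 was not tested. Lsr was at 9.59 with GRHL2 and Ildr1 at 0.80, a low level, and the rlog shrinks differences of low genes.

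Of 13 claudin genes 3 were called higher and 1 lower (5 and 1 with the block), beside the same shares of all genes. Cldn4, a barrier claudin, rose from 5.87 ± 0.10 to 7.59 ± 0.12 (SD, n = 4 each), by 1.71 (SE 0.072, adjusted p = 3.24e-06). Cldn6, an embryonic claudin, rose by 0.46 (adjusted p = 0.00286). Cldn23 rose by 0.16 (adjusted p = 0.00277) at a low level, 2.87 with transcript length added back, near that of Marveld3 (2.56). Cldn15, a claudin that forms cation channels, fell by 0.23 (adjusted p = 0.0145). Cldn2, a pore-forming claudin named after its values were seen, was higher with GRHL2 in all 4 replicate numbers, by 0.39 on average (adjusted p = 0.390, and 0.000403 with the block). The median over the claudins was 0.024.

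Of 21 further MARVEL domain genes 18 were in the table, and 4 were called higher and 0 lower by limma, beside 10.5% and 5.91% of all genes (5 and 1 at an unadjusted p under 0.05, 6 and 1 with the block). Over all 18671 genes, 3428 were higher and 2368 lower at an unadjusted p under 0.05, and 18.2% and 13.9% were called with the block. Mal, a raft protein of apical transport, rose from 9.16 ± 0.15 to 9.83 ± 0.25 (SD, n = 4 each), by 0.66 (SE 0.12, adjusted p = 0.00550). Its relatives Mall and Mal2 rose by 0.32 (adjusted p = 0.0155) and 0.21 (adjusted p = 0.0185), and Syngr1, a vesicle membrane protein, by 0.45 (adjusted p = 0.0226). The groups of Syngr1 overlapped, and its call held in 4 of 8 fits with 1 sample left out, being lost without GRHL2 replicate 3 or 4 or control replicate 1 or 2 (adjusted p up to 0.0702). Mal2 lost its call without GRHL2 replicate 1 (adjusted p = 0.0523). Marveld1 was at 0.014 (adjusted p = 0.935). The median was 0.057, and 16 of the 18 differences were positive. In the plot of the 4 gene groups, Ocln and Mal lie at like heights, and Cldn4 stands above all others.

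**Figure D4:**
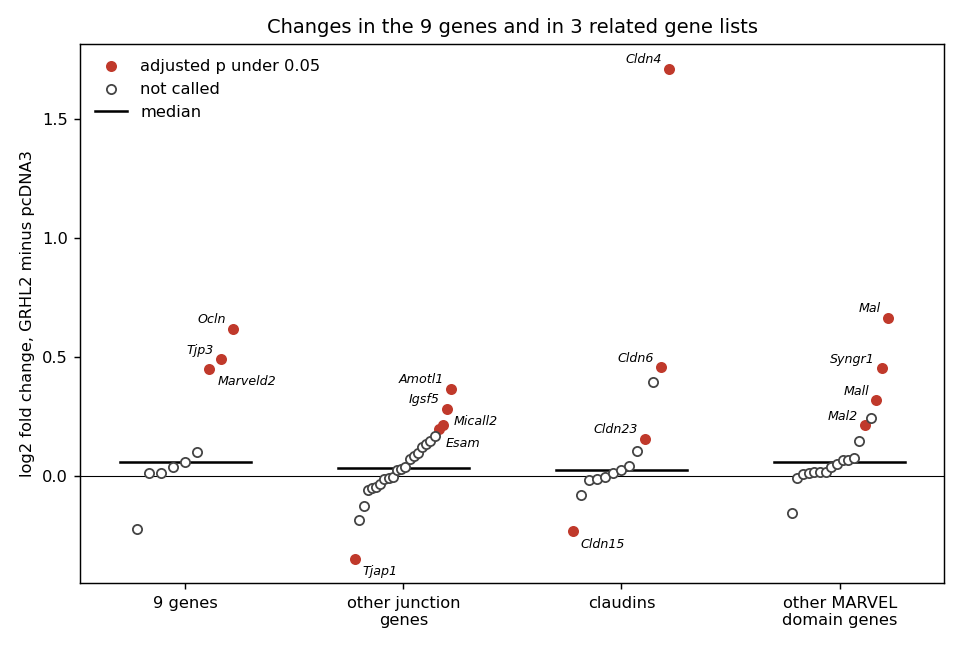
Log2 fold change (GRHL2 minus pcDNA3) of the 9 genes, 24 other junction genes, 13 claudins and 18 other MARVEL domain genes, with filled points for an adjusted p under 0.05 and a bar at each median. Called genes are mostly above 0, Tjap1 and Cldn15 are the 2 called below it, and the medians lie between 0.024 and 0.057.

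The 9 genes covered a wide range of levels per length. In controls Tjp1 was highest (11.80), followed by F11r (11.48), Cgnl1 (9.98), Cgn (9.46), Patj (8.53), Marveld2 (7.01), Ocln (5.96), Tjp3 (5.92) and Marveld3 (2.02). Each gene's 4 control samples lay apart from those of the next in this order except for Ocln and Tjp3. In GRHL2 samples F11r (11.58) and Tjp1 (11.58) overlapped, Ocln and Tjp3 still overlapped, and the rest of the order was the same. Distances between genes depend on the length correction. With length added back, the means over the 8 samples were 13.28 for Tjp1, 11.80 for F11r, 7.49 for Ocln and 6.63 for Tjp3. Tjp1 was above 97.0% of all genes and F11r above 96.6%, whereas Marveld2, Ocln and Tjp3 were above 56.6%, 48.7% and 48.0%. The 3 genes that rose were thus in the middle of the table, and the 5 genes above them in level were not called, although the highest of these, Tjp1 and F11r, were called with the block. On the linear scale and per length, Tjp1 exceeded Tjp3 by 58.7-fold in controls and by 35.8-fold with GRHL2.

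**Figure D5:**
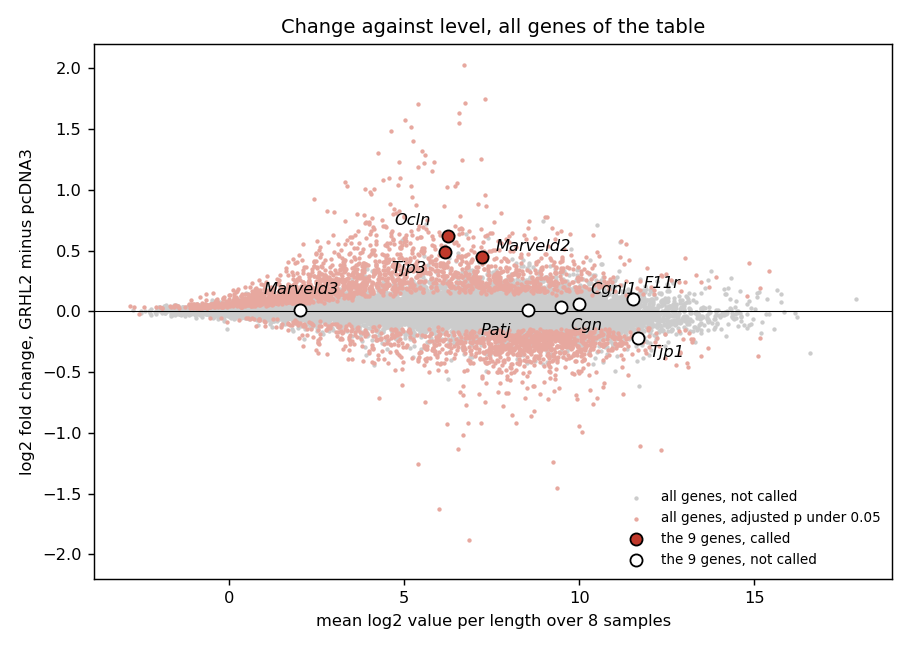
Log2 fold change (GRHL2 minus pcDNA3) against the mean log2 value per transcript length over the 8 samples, for all 18671 genes and the 9 named genes. Ocln, Tjp3 and Marveld2 lie in the middle of the range of levels and above 0.45, while Tjp1 and F11r lie near its upper end, and differences narrow toward the lowest levels.

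The genes whose values followed those of Ocln most closely over the 8 samples were Asic1 (Pearson's r 0.99), Ltk (0.99) and Vangl1 (0.99), and those for Marveld2 were Pdgfa (0.99), Celsr2 (0.99) and Pacsin3 (0.99). All 6 were called higher with GRHL2, with differences from 0.24 for Vangl1 to 1.03 for Ltk. As the 8 samples fall into 2 groups that both genes separate, any gene with a like difference has a high r, and the coefficients are given as a description with no test.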

How the data were processed

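RNA-seq values of 8 BMEL samples were used. Per the study's methods, HISAT2 mapping to mm10 was followed by unstranded exon counting in HTSeq, and a minimum of 10 cumulated reads per gene. The authors took rlog values from DESeq2 and corrected them for transcript length (GRCm39). The stated correction is a division by length. The values were read here as rlog less log2 length, since adding log2 length back brought the low end of the values to 0.30 to 0.39 in gene groups of every length, against -1.84 to 0.63 without it. The submitters' processing notes give versions 2.2.1, 0.9.1 and 1.40.2. That this description, which opens with public data, covers these samples was assumed. The authors' deposited values were treated as log2 values although the table is named for FPKM, because 4.81% lie below 0. Depth is therefore unknown, no interval that needs it is given, and the number of samples limits the precision. The rlog shrinks differences of low genes.

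Groups and replicate numbers came from the labels. All 18671 genes were tested with limma 3.58.1 in R 4.3.3 (2 groups, trended empirical Bayes, p-values adjusted over all genes after Benjamini and Hochberg, adjusted p under 0.05), with no pseudocount and no filter. "Called" means past this threshold. The plan allowed for linear values, which would have needed a pseudocount. The script was tested on simulated data. Exact permutation tests and sign flips were enumerated in full in Python 3.11.15. Same-numbered samples correlated in their deviations from group means (Pearson's r across genes 0.47, 0.56, 0.55 and 0.64; different numbers -0.61 to 0.60, mean -0.18). As every same-numbered pair was above 0.1, the numbers were taken to pair the samples. The highest value for different numbers (0.60) was above those of the same numbers 1, 2 and 3. The check therefore does not tell pairing by number apart from a split of replicates 1 and 2 against 3 and 4. Deviations from a group mean sum to 0, so the mean of -0.18 is no separate contrast.

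The 9 genes and the lists were chosen with earlier results of these data known. Named beside the 9 genes and Grhl2 were, from each list, up to 4 called genes per direction with the largest change, relatives whatever their result (Jam2, Jam3, Lsr, Ildr1, Marveld1; 1 further gene is not reported here), and the 3 genes most correlated with the 2 members of largest moderated statistic. Neighbouring genes and markers were named in addition. Gene positions came from GENCODE M21 (GRCm38). Alternatives were 2 scalings, the replicate block, sign flips within pairs, each sample left out, replicates 3 and 4 averaged, no trend, robust empirical Bayes, a mean value of at least 0, a threshold of 0.01, and differences within replicates 1 and 2 and within 3 and 4. The block without each replicate number was added after seeing the data.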

Additional observations from a re-analysis of the deposited data

How the results depend on the processing

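Ocln, Marveld2 and Tjp3 were called higher under every alternative run with adjusted p under 0.05, and of 382 recomputed values 321 kept their call or stayed within the replicate spread (counts within 1.5 times), 49 moved beyond that, 8 reversed and 4 passed the threshold that the reported value had missed. Among the 321, 7 values that were not called changed sign within the spread (5 for Cgn minus Cgnl1, 1 for Cgn and 1 for Patj). At an adjusted p under 0.01 2 of the 3 were called, without Tjp3. With the replicate number as a block Tjp1 (-0.22, adjusted p = 0.00204) and F11r (0.10, adjusted p = 0.0301) passed the threshold, and 1 of the 9 genes was called lower, as with the block without each of the replicate numbers 1 to 4. The block gave 3396 genes higher and 2589 lower, 8 other junction genes higher and 2 lower, 5 claudins higher and 1 other MARVEL gene lower, and changed no other call among the 9 genes. An equal upper quartile gave 3064 genes higher, and this scaling and the equal sum gave 5 claudins higher. With replicates 3 and 4 averaged 521 genes were lower, 1 other junction gene higher and 0 lower, and Patj was at -0.0095. Without the mean-variance trend 0 other junction genes were lower. At an adjusted p under 0.01 there were 903 genes higher and 354 lower, 1 other junction gene higher and 0 lower, 0 claudins lower and 1 other MARVEL gene higher. Within replicates 1 and 2 and within 3 and 4 Marveld2 differed by 0.55 and 0.35, and Marveld3 minus Marveld2 by -0.55 and -0.33. Leaving out each sample in turn gave -0.27 to -0.18 for Tjp1 (called in 2 of 8), -0.015 to 0.099 for Cgn (below 0 at -0.011 without GRHL2 replicate 1, -0.015 without GRHL2 replicate 2 and -0.0011 without control replicate 3), -0.0049 to 0.029 for Marveld3 (-0.0049 without control replicate 3) and -0.019 to 0.055 for Patj (-0.0045 without GRHL2 replicate 2, -0.019 and -0.0014 without control replicates 3 and 4). It gave 1326 to 1848 genes higher and 690 to 1036 lower, 3 of the 9 genes higher and 0 to 1 lower, 1 to 4 other junction genes higher and 0 to 1 lower, 3 to 4 claudins higher and 1 lower, and 3 to 4 other MARVEL genes higher and 0 to 1 lower. The cause of these shifts was not tested. The pseudocount alternative was not run because the scale is log2. Read depth is unknown, so whether low genes such as Marveld3 and Ildr1 changed could not be told.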
